A study of Mus musculus with 16 samples.

Results

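The 40 genes described here encode the machinery of DNA replication and of mitosis and the cyclins and transcription factors that switch both on. They were taken as a list of gene symbols, found by Ensembl identifier among the 55487 genes of the deposited tables, and separated by role into 14 replication genes, 19 mitosis genes and 7 regulators. All 40 were found and all 40 passed the filter on low counts that left 15573 genes for testing. The smallest count of any of them in any library was 89, for Ccne1.

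RNA was sequenced from 16 organoid lines, which are epithelial cultures grown in a gel of basement membrane proteins, derived from 6 mice that carried pancreatic ductal adenocarcinoma. The 9 metastasis lines came from the liver (mice 1 and 6), the peritoneum (mice 2, 3 and 4), the diaphragm (mice 5 and 6), the lung (mouse 5) and the ovary (mouse 6). The 7 tumor lines came from the primary tumor of each mouse, 1 per mouse except for 2 in mouse 6, called tumor replicates 6 and 7. All 16 lines share the KPC model, a mouse model of pancreatic cancer, and the strain C57BL6/J. The sources used here do not give the alleles, the Cre driver or the ages of the animals. All were cultured in the same medium, which contains growth factors (EGF, FGF-10), R-spondin, Noggin and the TGF-beta receptor inhibitor A83-01, so the levels below are those of growing cultures and not of tissue. Lines of 1 mouse share an animal. Every test below therefore has a term for the mouse unless it is said to lack it, and p-values measure the spread between lines.

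A dividing cell copies its DNA in S phase and separates the copies in mitosis. The Mcm proteins form the helicase that opens the DNA, Cdc6 and Cdt1 load it, and ribonucleotide reductase, thymidylate synthase and thymidine kinase supply the nucleotides. Most of these genes are switched on by E2F factors when cyclin D and cyclin E kinases inactivate the retinoblastoma protein. The mitosis genes follow later, when the MuvB complex with B-Myb (Mybl2) and FoxM1 activates promoters that hold an element called the cell cycle genes homology region (CHR). In most cells the sum of these transcripts follows the share of cells that are cycling.

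Total expected counts ran from 24624420 to 49965492 per library. The lowest belonged to the diaphragm line of mouse 5, in which genes that collect ribosomal RNA reads held 72.7% of the counts. That share ran from 0.0185 to 72.7% over metastasis lines (median 12.3%) and from 0.0463 to 29.9% over tumor lines (median 0.272%), with the tumor line of mouse 2 at 29.9%. Markers of duct epithelium were abundant in both stages, with summed levels of 3538 to 7178 CPM (counts scaled to library size) in metastasis lines and 3673 to 5301 CPM in tumor lines, and 0 of 6 differed by stage. The 7 fibroblast, 4 endothelial and 4 lung markers each stayed under 1 CPM in every line, and Lum, Adgre1, Emcn and Cpa1 were at 0 throughout. Of the 6 immune, mesothelial and acinar markers that could be tested, 0 differed by stage. Of 4 hepatocyte markers, Ttr, a plasma transport protein, fell in metastasis lines. The list summed to 0.209 to 6.51 CPM in metastasis lines and 6.65 to 112 CPM in tumor lines, and its part in the results below was not tested.

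On the TPM scale, which allows for gene length, the list spans a wide range. Ccnd1, which encodes cyclin D1, had the highest median over the 16 lines, at 299.6 TPM. The replication clamp Pcna followed at 243 TPM, the mitotic kinase Cdk1 at 203 TPM, topoisomerase Top2a at 178 TPM and cyclin D2 (Ccnd2) at 134 TPM. At the other end stood Ccne1 at 15.8 TPM, the kinetochore gene Cenpf at 13.4 TPM and the transcription factor gene E2f1 at 4.67 TPM.

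Between stages, 6 of the 40 genes rose in metastasis lines and 0 fell. Among all tested genes, 6.59% rose and 9.92% fell by the same rule, an adjusted p under 0.05 in edgeR's quasi-likelihood test with a term for each mouse. The 6 were the centromere and spindle genes Cenpe, Cenpa, Cenpf and Kif11 and the transcription factor genes Mybl2 and Foxm1. None of the 14 replication genes passed, and 1 of them, Rrm2, had an unadjusted p under 0.05 (DESeq2 called 1, limma with mouse as a random effect called 0). Fold changes were mostly above 0: 12 of 14 replication genes, 16 of 19 mitosis genes and 5 of 7 regulators, against 7460 of all 15573 genes. Median log2 fold changes were 0.13 for replication genes, 0.23 for mitosis genes and 0.09 for regulators, beside -0.02 for all genes tested. On log2(TPM + 1) the replication median turned to -0.00805 and the mitosis median was 0.0738, beside -0.10 for all genes. At an unadjusted p under 0.05, 13 of the 40 were higher in metastasis lines and 0 lower, against 15% and 18.6% of all genes. In bulk libraries, more dividing cells and more RNA per dividing cell cannot be told apart.

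The count of 6 changed with the lines left out. In mice 1 to 4, with 1 line per stage, leaving out either line removes the comparison of that mouse. The same holds for the tumor line of mouse 5. It was 2 without either line of mouse 2 or of mouse 3 or without the tumor line of mouse 5, and 3 without either line of mouse 1 or without the lung line of mouse 5. Without the 2 libraries richest in ribosomal RNA it was 2, with 1.5% of all genes higher by that fit, which also loses the comparison of mouse 2. With the share of ribosomal RNA as a covariate it was 4 (5.07% of all genes higher), and with the log2 of that share, tried after seeing the data, it was 3 (1.62%). It was 9 without the ovary line of mouse 6 or without tumor replicate 7, where 2542 and 2499 of all genes were called in either direction. Cenpa and Cenpe were called in each of these fits. With limma on log2(TPM + 1) the count was 0, where 2.11% of all genes were higher.

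**Figure D1:**
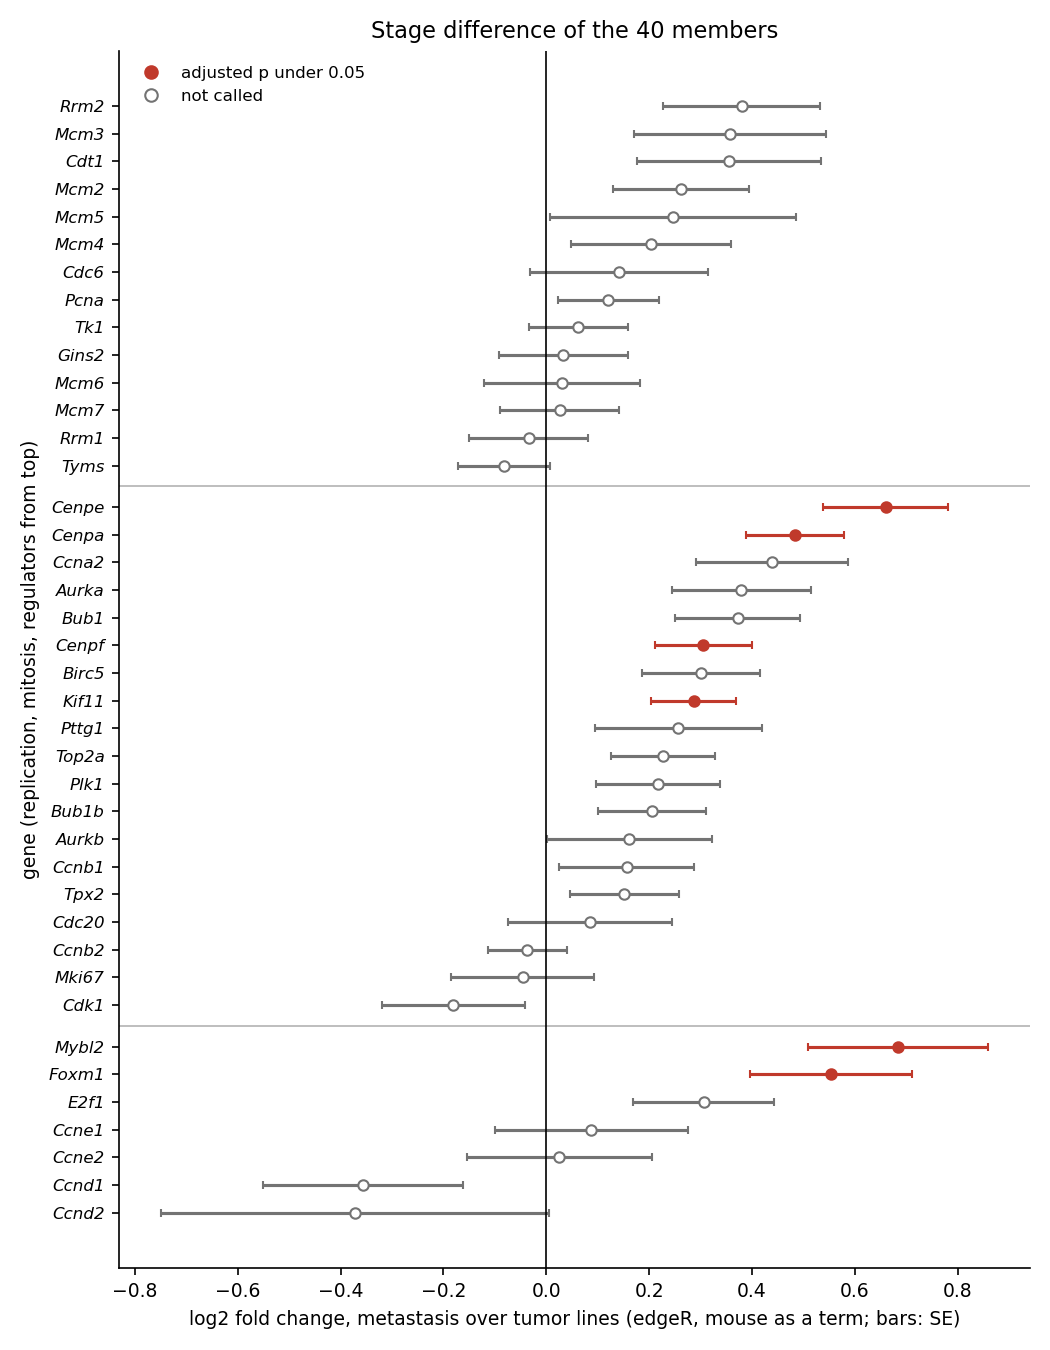
Log2 fold change of each of the 40 genes, metastasis over tumor lines, from edgeR with a term for each mouse; bars are standard errors, filled points have an adjusted p under 0.05. The 6 called genes lie between 0.29 and 0.68, all on the higher side, and no replication gene is filled.

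Cenpe, the kinesin that carries chromosomes to the spindle equator, lay between 94.1 and 204 CPM in metastasis lines (median 167), against 74.9 to 119 CPM in tumor lines (median 92.0). The groups overlapped only through the 3 metastasis lines of mouse 6, at 94.1 to 109 CPM, and those still exceeded both tumor lines of that mouse. The gene (chr3:135212537-135273611, GRCm38) rose 1.58-fold, with a log2 fold change of 0.66 (SE 0.12, edgeR adjusted p = 0.00649), and was higher in 6 of 6 mice. It passed in 34 of 36 alternative settings.

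Cenpa encodes the histone H3 variant that marks centromeres. Its levels were 74.3 to 105 CPM in metastasis lines (median 89.4) and 48.3 to 90.5 CPM in tumor lines (median 64.4). The overlap came from the tumor lines of mouse 6, of which tumor replicate 6, at 90.5 CPM, was above the liver line of its mouse at 88.3 CPM. Cenpa (chr5:30666777-30674830) rose 1.40-fold (log2 fold change 0.48, SE 0.09, edgeR adjusted p = 0.00836), was higher in 6 of 6 mice and passed in 34 of 36 settings. For both genes the settings that missed were the fits to TPM.

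Kif11, the motor that pushes spindle poles apart, had 147 to 272 CPM in metastasis lines (median 197) and 134 to 212 CPM in tumor lines (median 173). The metastasis lines of mouse 6 were highest, and the 2 lines of mouse 1 were level, at 189 CPM in the liver line and 189.8 CPM in the tumor line. Kif11 (chr19:37376403-37421859) rose 1.22-fold (log2 0.29, SE 0.08, edgeR adjusted p = 0.0353; higher in 5 of 6 mice). The genes tested on chromosome 19 had a median log2 fold change of 0.24, whose part in this result was not tested.

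Cenpf, a large kinetochore protein, had 82.3 to 149 CPM in metastasis lines (median 107) and 68.5 to 119 CPM in tumor lines (median 85.4). Both metastasis lines of mouse 5 stood highest, at 149 and 143 CPM, against 85.4 CPM in the tumor line of that mouse. Cenpf (chr1:189640606-189688086) rose 1.24-fold (log2 0.31, SE 0.09, edgeR adjusted p = 0.0462; higher in 6 of 6 mice). Kif11 passed in 13 and Cenpf in 10 of 36 alternative settings, and both missed in the fit without the mouse block (adjusted p = 0.165 for Kif11 and 0.148 for Cenpf).

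**Figure D2:**
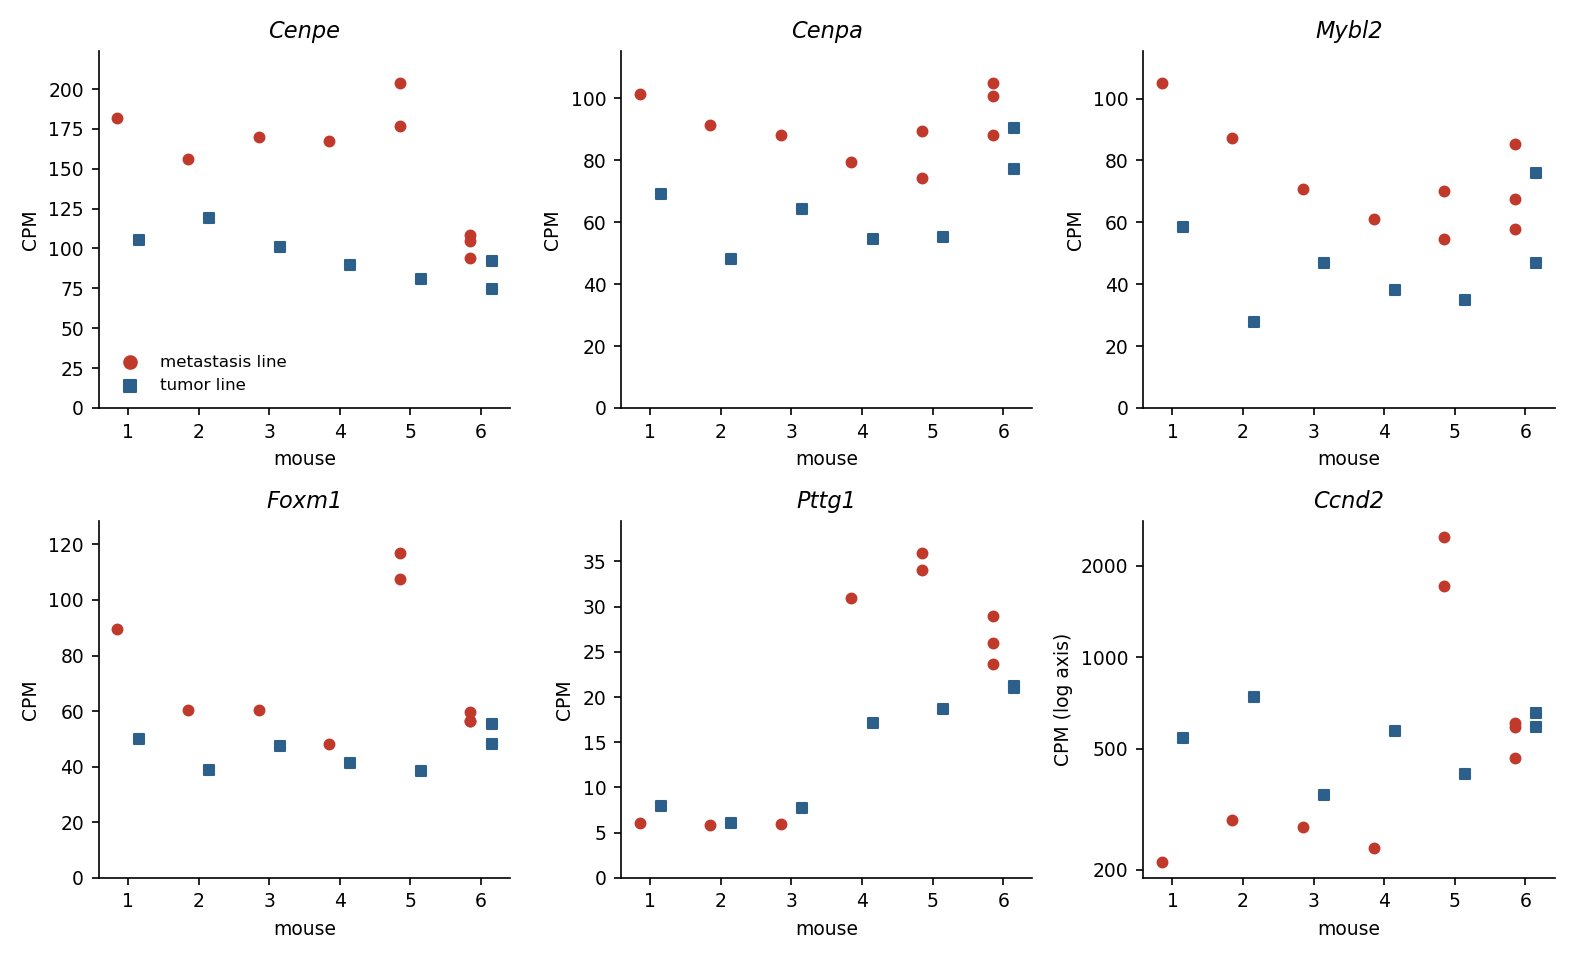
CPM of 6 genes in every line, with metastasis lines as circles left of the tumor lines (squares) of the same mouse; the axis for Ccnd2 is logarithmic. Every metastasis line lies above the tumor lines of its mouse for Cenpe and Foxm1, Pttg1 is under 8 CPM in all lines of mice 1 to 3, and the 2 metastasis lines of mouse 5 hold 2492 and 1722 CPM of Ccnd2.

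The other 15 mitosis genes did not pass. Those nearest to the threshold were Bub1, a spindle checkpoint kinase, at a log2 fold change of 0.37 (edgeR adjusted p = 0.0549), cyclin A2 (Ccna2) at 0.44 (0.0609), the spindle pole kinase Aurka at 0.38 (0.0733) and the chromosomal passenger Birc5 at 0.30 (0.0888). Ccna2 averaged 282 ± 54.0 CPM in metastasis lines and 211 ± 45.0 CPM in tumor lines (SD, n = 9 and 7), and 5 of 9 metastasis lines lay above every tumor line. DESeq2 called these 4 and Rrm2 besides the 6, a total of 11, where 12% of all genes were higher by DESeq2.

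Mki67 and Top2a, both in wide use as proliferation markers, did not pass. Mki67, which encodes the Ki-67 antigen, had 317 to 698 CPM in metastasis lines (median 486) and 389 to 617 CPM in tumor lines (median 495). Its mean was 496 CPM in both groups, with a log2 fold change of -0.05 (SE 0.14, edgeR adjusted p = 0.85), and the highest and the lowest line were both metastasis lines, the diaphragm line of mouse 5 and the peritoneum line of mouse 4. Top2a, which untangles DNA before chromosomes separate, had 527 to 782 CPM in metastasis lines (median 647) and 472 to 667 CPM in tumor lines (median 601), with a log2 fold change of 0.23 (SE 0.10, edgeR adjusted p = 0.136).

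Cdk1 had 109 to 188 CPM in metastasis lines (median 140.4) and 108 to 198 CPM in tumor lines (median 142). It was lower in 5 of 6 mice, with a log2 fold change of -0.18 (SE 0.14, edgeR adjusted p = 0.391). Its partner Ccnb1, cyclin B1, was at 0.16 (SE 0.13, edgeR adjusted p = 0.433) and Ccnb2 at -0.04. The genes tested on the chromosomes of these genes had median log2 fold changes of -0.22 (chromosome 10, Cdk1), -0.22 (chromosome 13, Ccnb1) and -0.01 (chromosome 9, Ccnb2). The part of these medians was not tested. Ccnb1 lay between 105 and 248 CPM in metastasis lines (median 183) and between 125 and 226 CPM in tumor lines (median 151). So the groups overlapped almost fully for the kinase and for both B cyclins, of which Ccnb2 was the steadiest of the 40, with a ratio of 1.34 between its highest and lowest line.

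Among replication genes, the helicase subunits Mcm2 to Mcm7 had log2 fold changes of 0.03 to 0.36, none past the threshold. Mcm2 had 86.8 to 184 CPM in metastasis lines (median 129) and 83.9 to 148 CPM in tumor lines (median 109), with a log2 fold change of 0.26 (SE 0.13, edgeR adjusted p = 0.185). Mcm3 alone of the replication genes was higher in 6 of 6 mice (0.36, SE 0.19, adjusted p = 0.201). Over the list, 9 of 40 were higher in all 6 mice and 0 were lower in all 6, where 11.9% of all genes were higher and 13.9% lower by that count.

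The loading factor Cdt1 was at 0.36 (SE 0.18) and its partner Cdc6 at 0.14 (SE 0.17). Pcna, the sliding clamp of the polymerases, had 183 to 339.8 CPM in metastasis lines (median 266) and 189 to 322 CPM in tumor lines (median 235). Its log2 fold change was 0.12 (SE 0.10, edgeR adjusted p = 0.422). On log2(TPM + 1) it turned to -0.04, beside a median of -0.10 for all genes. The groups overlapped over nearly their whole range, and the lowest Pcna level of each group was found in mouse 5.

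Of the nucleotide suppliers, Rrm2, the regulated subunit of ribonucleotide reductase, came nearest to a call. It had 171 to 367 CPM in metastasis lines (median 227) and 105 to 276 CPM in tumor lines (median 180.1), with a log2 fold change of 0.38 (SE 0.15, edgeR adjusted p = 0.104). The liver and diaphragm lines of mouse 6 were highest, at 367 and 312 CPM, and the tumor line of mouse 5 was lowest. Rrm1, the large subunit, was at -0.03 (SE 0.12), thymidine kinase Tk1 at 0.06 (SE 0.10) and thymidylate synthase Tyms at -0.08 (SE 0.09). Tyms had 39.0 to 83.7 CPM in metastasis lines (median 69.3) and 58.7 to 87.5 CPM in tumor lines (median 67.6), and its 39.0 CPM in the diaphragm line of mouse 5 was the lowest of all.

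Both regulators that rose act on mitosis genes. Mybl2, which encodes B-Myb, had 54.8 to 105 CPM in metastasis lines (median 70.0) and 27.6 to 76.0 CPM in tumor lines (median 46.7). Each metastasis line of mice 1 to 5 exceeded its own tumor line, while in mouse 6 the tumor replicate 7, at 76.0 CPM, was above the diaphragm and ovary lines. Mybl2 (chr2:163054687-163084688) rose 1.61-fold (log2 0.68, SE 0.18, edgeR adjusted p = 0.0236; higher in 6 of 6 mice) and passed in 21 of 36 settings.

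Foxm1 had 48.2 to 117 CPM in metastasis lines (median 60.4) and 38.4 to 55.4 CPM in tumor lines (median 47.5). The peritoneum line of mouse 4 was the only metastasis line within the tumor range, and the 2 metastasis lines of mouse 5 were highest, at 117 and 108 CPM, against 38.4 CPM in the tumor line of that mouse. Foxm1 (chr6:128362967-128376146) rose 1.47-fold (log2 0.55, SE 0.16, edgeR adjusted p = 0.0343; higher in 6 of 6 mice) and passed in 18 of 36 settings. Foxm1 and Cenpe were the 2 genes of the 40 for which every metastasis line lay above every tumor line of its own mouse, where 1.84% of all genes did so, and 0 of the 40 were below in that way, against 3.73% of all genes. No gene of the 40 separated all metastasis lines from all tumor lines, against 1.12% of all genes.

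E2f1, the first-named activator of S phase genes, had 8.77 to 19.9 CPM in metastasis lines (median 10.4) and 7.84 to 11.7 CPM in tumor lines (median 8.70). It was higher in 6 of 6 mice and did not pass (log2 0.31, SE 0.14, edgeR adjusted p = 0.14). The liver line of mouse 1 stood well above the other 15 lines.

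The cyclins that act before S phase gave no call. Ccnd1 had 516 to 1114 CPM in metastasis lines (median 684) and 715 to 1215 CPM in tumor lines (median 894), and was lower in 5 of 6 mice (log2 -0.36, SE 0.19, edgeR adjusted p = 0.22). Cyclin E1 (Ccne1) had 11.5 to 30.4 CPM in metastasis lines (median 21.3) and 15.3 to 29.9 CPM in tumor lines (median 17.7), and cyclin E2 (Ccne2) had 17.8 to 37.0 CPM in metastasis lines (median 28.4) and 18.0 to 38.9 CPM in tumor lines (median 27.7). Their log2 fold changes were 0.09 (SE 0.19) and 0.03 (SE 0.18), and the sign of both turned in some settings. The groups overlapped for all 3 of these cyclins.

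Ccnd2 varied most of the 40 genes, with a ratio of 11.7 between its highest and lowest line. The diaphragm and lung lines of mouse 5 had 2492 and 1722 CPM, against 414 CPM in the tumor line of that mouse. In the other 5 mice metastasis lines had 212 to 607 CPM and the tumor lines 352 to 743 CPM, and the mean of the metastasis lines was below that of the tumor lines in each. The log2 fold change was -0.37 (SE 0.38, edgeR adjusted p = 0.523), and it was 0.47 without the mouse block (adjusted p = 0.554). The means over all lines, 765 ± 798 CPM in metastasis lines and 553 ± 134 CPM in tumor lines (SD, n = 9 and 7), also run that way. Without the tumor line of mouse 5 it was -0.75 (adjusted p = 0.0489).

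**Figure D3:**
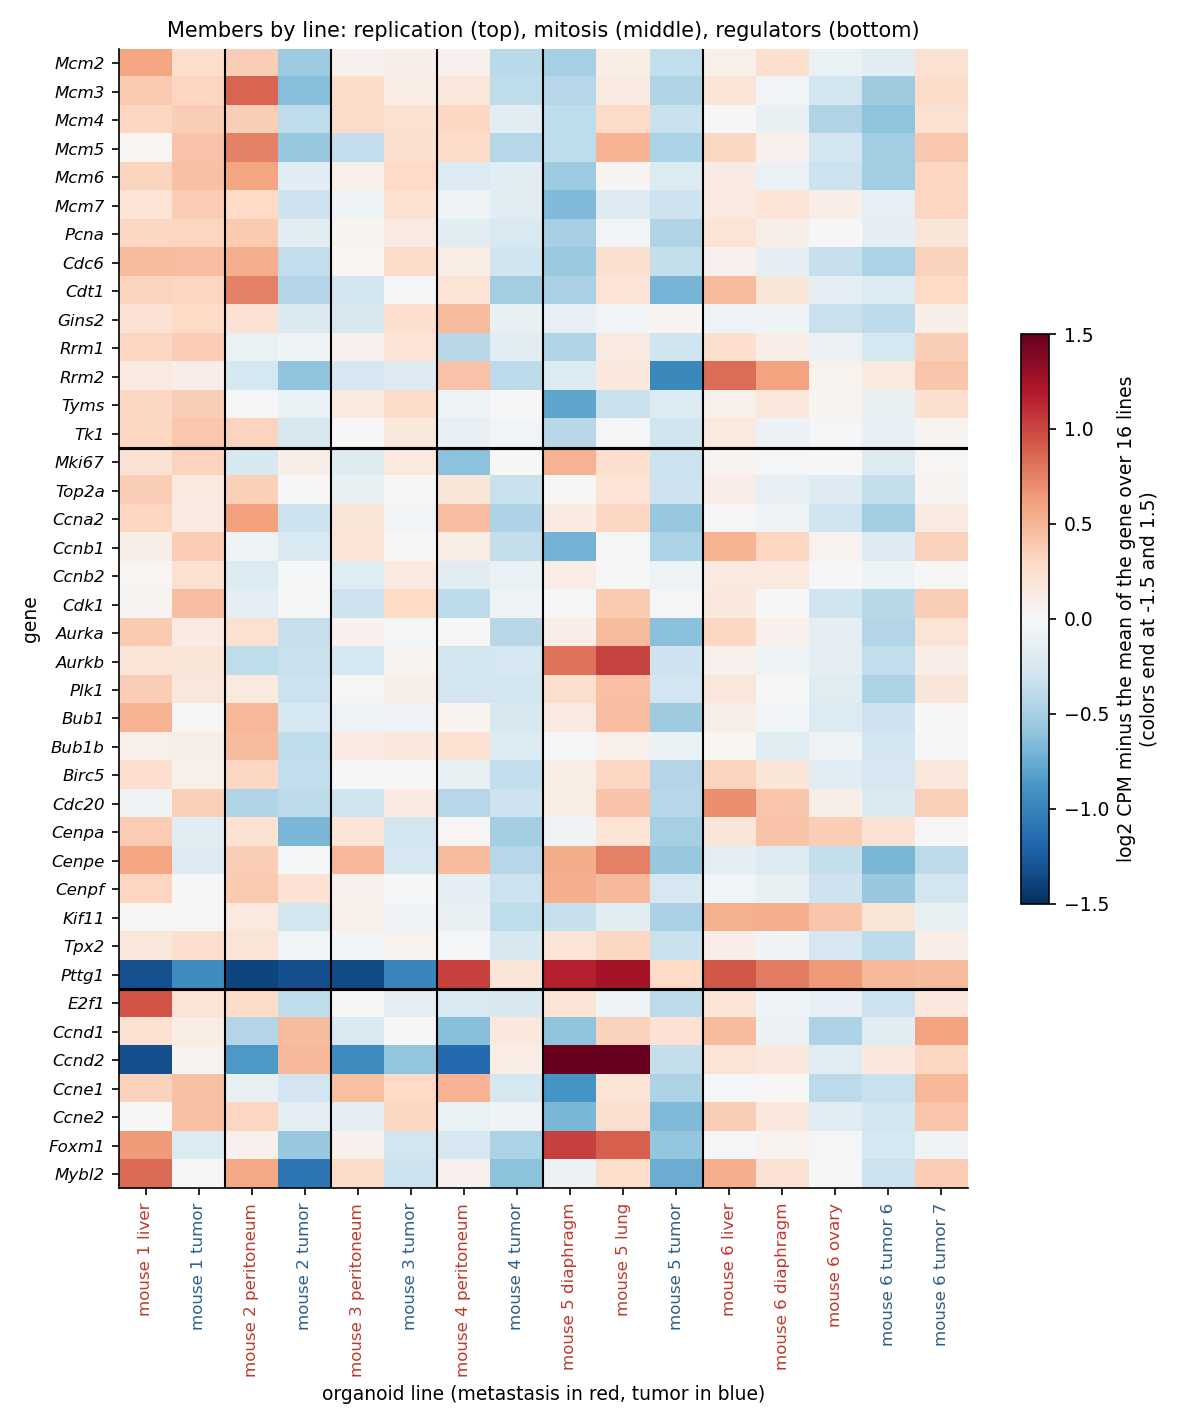
Log2 CPM of each gene in each line minus its mean over the 16 lines, ordered by mouse with metastasis lines (red labels) left of tumor lines (blue labels); red cells are above the mean, blue cells below, and the color scale is capped at both ends. Replication genes move as a block along the lines, and the diaphragm line of mouse 5 is low for most of them while its mitosis genes are not. Pttg1 stands out by mouse, and Ccnd2 in the 2 metastasis lines of mouse 5 but not in its tumor line.

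Taken line by line against its own tumor, the classes did not always go together. Over all genes tested, the median of a metastasis line against its own tumor ran from -0.06 to 0.01 (log2). Genes read in 1 library are not independent, so the counts below describe single lines and were not tested. In the lung line of mouse 5, 12 of 14 replication and 19 of 19 mitosis genes were above the tumor line, with medians of 0.46 and 0.74 (log2). In the diaphragm line of the same mouse only 4 of 14 replication genes were above it (median -0.12), but 17 of 19 mitosis genes were (median 0.55). The peritoneum line of mouse 2 had the reverse order, with medians of 0.68 for replication (13 of 14 above) and 0.36 for mitosis genes (13 of 19 above).

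The liver line of mouse 6 had all 14 replication and all 19 mitosis genes above the mean of its 2 tumor lines, and the diaphragm line of that mouse 12 and 18. Its ovary line had 1 and 9, with medians of -0.16 and -0.01. In mouse 3, 2 replication and 7 mitosis genes were above the tumor line, in mouse 1 it was 5 and 10, and in mouse 4 it was 10 and 13. The 2 tumor lines of mouse 6 differed from each other too, with mean log2 CPM of 6.57 and 7.13 over the replication genes.

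Averaged over the genes of a class, the within-mouse difference (metastasis minus tumor, log2 CPM) was 0.18 ± 0.31 for replication and 0.23 ± 0.23 for mitosis (SD, n = 6 mice). It was above 0 in 4 of 6 mice for replication and in 5 of 6 for mitosis. The difference between both classes, which does not depend on how libraries are scaled, was -0.06 ± 0.26, ran from -0.42 in mouse 5 to 0.38 in mouse 2, and so was smaller than the spread between mice. In mouse 5 both metastasis lines were below the tumor line. The diaphragm line of mouse 5 and the tumor line of mouse 2 are the libraries richest in ribosomal RNA reads. Without these 2 libraries the mean was -0.11, without either line of mouse 2 it was -0.15, and without the tumor line of mouse 5 it was 0.01. Leaving out a line of mouse 2 or the tumor line of mouse 5 takes that mouse out of the mean.

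**Figure D4:**
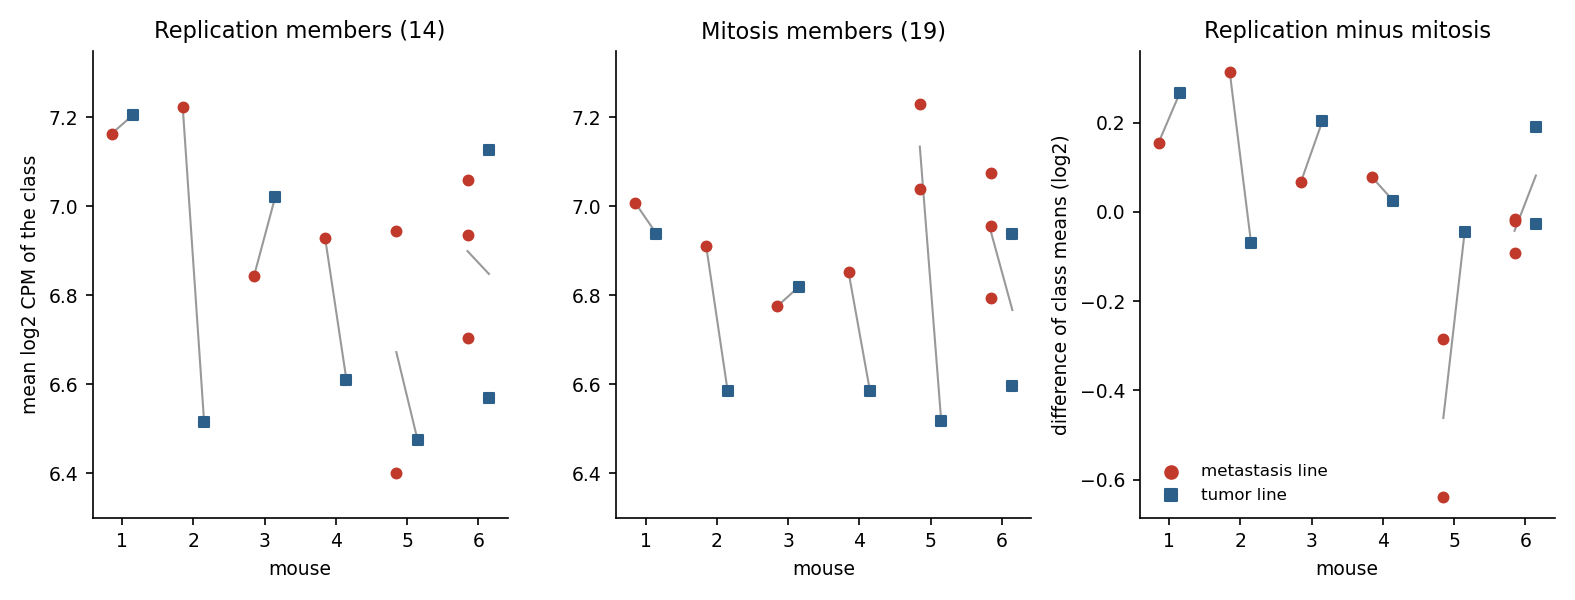
Mean log2 CPM of the 14 replication genes and of the 19 mitosis genes, and the difference of both means, in each line by mouse; gray lines join the mean of the metastasis lines (circles, left) to that of the tumor lines (squares, right). Replication minus mitosis is lowest in the diaphragm line of mouse 5, at -0.64, and highest in the peritoneum line of mouse 2, at 0.31.

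Replication-dependent histone genes, whose transcripts are made in S phase and mostly lack a poly(A) tail, can be read in these libraries because ribosomal RNA was depleted rather than poly(A) RNA selected. Their sum was 7545 to 9716 CPM in metastasis lines and 5949 to 13529 CPM in tumor lines, with a within-mouse difference of -0.01 ± 0.46 (log2, SD, n = 6 mice). Of 70 histone genes listed, 65 were tested, 2 rose (3.08%) and 0 fell, beside 6.59% and 9.92% of all genes.

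Differences between animals were tested in the same fit. Pttg1, which encodes securin, the inhibitor of the protease that separates sister chromatids, was the 1 gene of 40 that differed between mice (edgeR adjusted p = 0.0143), where 0.154% of all genes did. All 6 lines of mice 1 to 3 had 5.85 to 7.91 CPM, while metastasis lines of mice 4 to 6 had 23.7 to 35.9 CPM and tumor lines of those mice 17.1 to 21.2 CPM. Pttg1 was lower in metastasis than in tumor lines in mice 1 to 3 and higher in mice 4 to 6. The stage test gave 0.26 (SE 0.16, adjusted p = 0.29). Of 10 tested genes that flank Pttg1 on chromosome 11, equally many on each side, 0 differed between mice. They lie up to 2680204 bases away. Slu7, at 7493 bases, had 28.8 to 48.3 CPM over all lines (edgeR adjusted p = 0.8). The call was lost without the 2 libraries richest in ribosomal RNA and without the liver line of mouse 1, the diaphragm or the lung line of mouse 5, or the peritoneum line of mouse 2. It was also lost without mouse 5 or mouse 6 as a whole. Alleles, isoforms and similar copies of Pttg1 were not checked, so its CPM values are those of the deposited gene row only.

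After Pttg1, the lowest p-values between mice belonged to Kif11 (edgeR adjusted p = 0.119), Tyms (0.171), Cenpf (0.173) and Ccnd2 (0.214), all above the threshold. Kif11 was highest in the metastasis lines of mouse 6 and Tyms in the lines of mouse 1.

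No difference between metastatic sites was called, with 1 line each from the lung and the ovary. None of the 40 passed a test that all 5 sites have the same difference from tumor lines, and none of all 15573 genes did (0%). At an unadjusted p under 0.05 there were 0 of 40, and 1.71% of all genes. The lowest belonged to Ccnd1, Ccne1 and Mki67, each with an edgeR adjusted p of 0.9999. For Ccnd1 the log2 fold change over tumor lines was 0.13 (SE 0.26) in liver lines and 0.25 (SE 0.37) in the lung line, but -0.56 (SE 0.27) in diaphragm, -0.65 (SE 0.24) in peritoneum and -0.80 (SE 0.36) in ovary lines. Mki67 was at -0.43 (SE 0.19) in peritoneum lines and 0.37 (SE 0.22) in diaphragm lines. Every gene that rose by stage was above 0 at every site, and so were some that did not, such as Bub1. Cenpe ran from 0.31 (SE 0.27) in the ovary line to 1.1 (SE 0.32) in the lung line. It passed at no single site, with a lowest edgeR adjusted p of 0.103 in peritoneum lines.

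Across the 16 lines, replication genes followed each other more closely than mitosis genes did. The mean Pearson correlation of log2 CPM was 0.67 over 91 pairs of replication genes, 0.39 over 171 pairs of mitosis genes and 0.35 over 266 pairs with 1 gene from each class. Over the 7 tumor lines alone these means were 0.85, 0.53 and 0.67, and over the 9 metastasis lines 0.57, 0.21 and 0.14. The points share libraries, scaling and animals, so these values describe the lines and were not tested. Cdc6 was closest to the mean of the replication genes (0.94) and Rrm2 farthest from it (0.46). Aurka was closest to the mean of the mitosis genes (0.93), and Pttg1 (0.01) and Kif11 (0.26) were farthest. Of the regulators, Foxm1 followed the mitosis mean (0.80) rather than the replication mean (0.15), Ccne2 the replication mean (0.87 and, for mitosis, 0.47), and Mybl2 both (0.77 for mitosis and 0.75 for replication).

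Outside the list, the genes most like the mitosis mean over the 16 lines were Ube2c (r = 0.94), which encodes a ubiquitin-conjugating enzyme of the anaphase-promoting complex, Fam83d (0.92), Nup35, Nup37, Troap, Gm44067, Kif22, Kif18a, Kpna2 and Gtf2f1 (0.87). Those most like the replication mean were Zmynd19 (0.95), Nup85 (0.93), Ran (0.93), Tfap4, Gpn1, Ppil1, 1110038B12Rik, Lsm2, Exosc2 and Hspa14 (0.91). Both lists were ranked over all tested genes by Pearson correlation of log2 CPM.

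The promoters of both classes were read for words known from cell cycle genes. RefSeq windows on GRCm38.p6, from 250 bases before to 50 after the start, were found for 31 of the 40 genes: 12 of 14 replication genes, 16 of 19 mitosis genes and 3 of 7 regulators. The CHR word TTTGAA, searched on both strands, was in 11 of 16 mitosis windows (68.8%) and 1 of 12 replication windows (8.33%), against 20.2% of all 27025 genes with a window. The E2F words TTTCCCGC, TTTGGCGC, TTTCGCGC and TTTGCCGC, searched the same way and able to overlap each other, were in 1 of 16 mitosis windows (6.25%) and 6 of 12 replication windows (50%), against 2.6% of all. The CCAAT box (CCAAT) was in 14 of 16 and 8 of 12, against 41.1%.

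These shares are read from letters alone, and a match is a description. In 10 of the 11 mitosis genes with a CHR word, it lay within 50 bases of the start. The longer word of GCGG, 4 bases of any kind and TTTGAA contains the CHR word. It was in 2 of the 31 genes with a window, Cdk1 and Cenpf, against 0.0851% of all genes with a window. Of the genes that rose, Cenpa, Cenpf and Kif11 hold a CHR word and Cenpe and Mybl2 do not, so 3 of 11 mitosis genes with the word and 1 of 5 without it were called. Windows of Mcm4, Gins2, Ccna2, Aurkb, Tpx2, Ccnd1, Ccnd2, Ccne2 and Foxm1 were not analysed here.

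The windows below show both layouts, from called mitosis genes and Cdk1 and from a pair of helicase genes. Capitals mark CHR, E2F and CCAAT words on either strand and the GCGG of the longer word, and the 50 last bases lie after the start.
Cenpf, chr1:189688037-189688336 (minus strand): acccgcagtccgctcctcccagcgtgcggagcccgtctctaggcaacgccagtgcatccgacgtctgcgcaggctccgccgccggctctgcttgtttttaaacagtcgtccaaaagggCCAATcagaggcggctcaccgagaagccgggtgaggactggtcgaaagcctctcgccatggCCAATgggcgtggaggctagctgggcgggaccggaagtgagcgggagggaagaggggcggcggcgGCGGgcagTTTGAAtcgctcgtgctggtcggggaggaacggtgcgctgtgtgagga
Cdk1, chr10:69352863-69353162 (minus strand): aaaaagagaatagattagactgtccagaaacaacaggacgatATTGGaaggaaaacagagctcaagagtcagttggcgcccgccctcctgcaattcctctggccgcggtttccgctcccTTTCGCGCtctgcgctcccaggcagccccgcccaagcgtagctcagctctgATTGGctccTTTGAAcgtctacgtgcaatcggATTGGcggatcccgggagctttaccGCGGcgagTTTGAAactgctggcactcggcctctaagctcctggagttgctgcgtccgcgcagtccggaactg
Cenpa, chr5:30666636-30666935 (plus strand): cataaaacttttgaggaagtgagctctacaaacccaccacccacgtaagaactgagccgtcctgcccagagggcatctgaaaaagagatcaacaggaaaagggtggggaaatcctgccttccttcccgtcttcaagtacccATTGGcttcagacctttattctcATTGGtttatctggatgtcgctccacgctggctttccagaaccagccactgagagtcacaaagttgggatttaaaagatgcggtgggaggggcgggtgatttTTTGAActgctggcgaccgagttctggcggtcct
Kif11, chr19:37376132-37376431 (plus strand): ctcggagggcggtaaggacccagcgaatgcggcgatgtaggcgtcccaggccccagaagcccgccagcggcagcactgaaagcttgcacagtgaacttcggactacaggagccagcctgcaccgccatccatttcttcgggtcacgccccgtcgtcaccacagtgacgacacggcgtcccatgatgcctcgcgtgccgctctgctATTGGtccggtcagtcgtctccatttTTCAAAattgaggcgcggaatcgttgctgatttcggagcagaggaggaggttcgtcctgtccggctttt
Mcm3, chr1:20820263-20820562 (minus strand): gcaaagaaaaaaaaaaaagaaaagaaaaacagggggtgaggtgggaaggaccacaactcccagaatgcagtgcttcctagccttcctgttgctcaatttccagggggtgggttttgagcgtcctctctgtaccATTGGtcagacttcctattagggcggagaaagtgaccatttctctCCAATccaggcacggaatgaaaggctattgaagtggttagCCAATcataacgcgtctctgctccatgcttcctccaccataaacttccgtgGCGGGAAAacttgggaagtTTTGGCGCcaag
Mcm5, chr8:75109259-75109558 (plus strand): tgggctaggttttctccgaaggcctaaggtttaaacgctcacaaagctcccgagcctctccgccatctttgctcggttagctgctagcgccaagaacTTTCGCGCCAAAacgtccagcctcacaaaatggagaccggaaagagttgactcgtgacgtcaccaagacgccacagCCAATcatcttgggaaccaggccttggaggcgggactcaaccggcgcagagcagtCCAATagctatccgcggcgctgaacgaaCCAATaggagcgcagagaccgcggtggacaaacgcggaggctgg
In the Cenpf and Cdk1 windows the GCGG and TTTGAA words stand 4 bases apart, next to the start, downstream of CCAAT boxes. Kif11 holds the CHR word on the other strand (TTCAAA), close to a CCAAT box that is also on the other strand (ATTGG). Mcm3 holds 1 E2F word on each strand, both after the start, and in Mcm5 2 E2F words on opposite strands overlap. Neither helicase window holds TTTGAA.

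**Figure D5:**
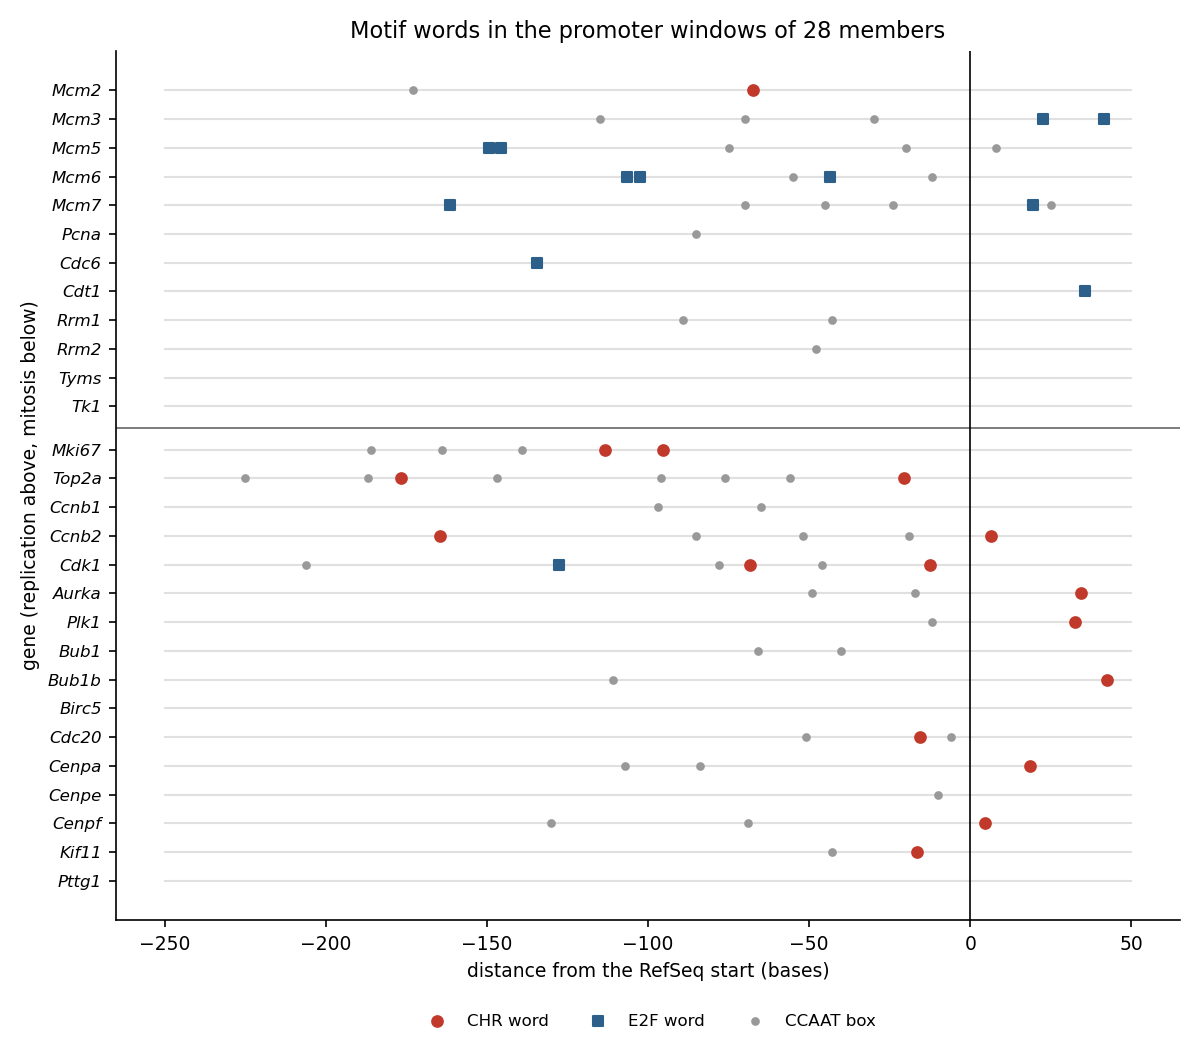
Positions of CHR words (red circles), E2F words (blue squares) and CCAAT boxes (gray dots) in the windows of 12 replication and 16 mitosis genes, as the distance in bases from the RefSeq start (0, vertical line). CHR words gather around the start of mitosis genes and E2F words occur in replication genes and Cdk1.

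The pathway around the 40 genes was read from wider lists without them. Of 64 further mitosis genes, 16 rose (25%) and 2 fell, with a median log2 fold change of 0.16. By lowest p the first were Incenp, a scaffold of the Aurora B complex (0.50, SE 0.07, edgeR adjusted p = 0.00239), Cdc25b, the phosphatase that activates Cdk1 (0.87, SE 0.13), Cep55, which acts in the last cut between daughter cells (0.84, SE 0.15), and Kif20b (0.50, SE 0.10). Incenp, Cep55 and Kif20b lie on chromosome 19, whose median log2 fold change was 0.24, as does Pola2 below. The 2 that fell, named after their values were seen, were Ckap2, a microtubule-associated protein (-0.68, SE 0.16), and Gtse1, first described as a p53-inducible gene (-0.90, SE 0.22). The CHR word was in 37 of the 54 windows found for this list (68.5%) and E2F words were in 6 (11.1%), against 20.2% and 2.6% of all genes with a window.

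Of 44 further replication genes, 3 rose (6.82%) and 1 fell, with a median of 0.09. The polymerase alpha subunit Pola2 rose by 0.52 (SE 0.12), the Cdc7 activator Dbf4 by 0.32 (SE 0.09) and the helicase cofactor Cdc45 by 0.37 (SE 0.11), while Orc5 of the origin recognition complex fell by 0.40 (SE 0.12). The shares that rose in the 2 wider lists stand beside 6.59% of all genes. Of the 36 windows found for the further replication genes, 6 held the CHR word (16.7%) and 12 held E2F words (33.3%).

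Of 12 listed genes of cyclins, their kinases and the enzymes that control these, 11 were tested, 0 rose and 1 fell, beside 6.59% and 9.92% of all genes: Cdk4, the kinase of D cyclins, had 140.1 to 212 CPM in metastasis lines and 156 to 264 CPM in tumor lines (log2 -0.47, SE 0.12, edgeR adjusted p = 0.0244). Cdk4 lies on chromosome 10, where the genes tested had a median log2 fold change of -0.22, whose part was not tested. Of 7 kinase inhibitors, 0 rose and 1 fell, Cdkn1a, which encodes p21. It had 1.71 to 15.9 CPM in metastasis lines and 10.9 to 37.6 CPM in tumor lines, so the groups overlapped only through the diaphragm line of mouse 5 and the tumor replicate 6 of mouse 6. Of 18 E2F, retinoblastoma and MuvB genes, 3 rose and 2 fell, beside the same shares of all genes, among them E2f2 (0.75, SE 0.19), Lin54, the MuvB subunit that binds the CHR (0.54, SE 0.15), and, on the lower side, the histone chaperone and MuvB subunit Rbbp4 (-0.46, SE 0.13) and Mybl1, a relative of Mybl2 (-0.86, SE 0.16). E2f5 (0.43, SE 0.12), picked after seeing its values, also rose.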

How the data were processed

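RNA of 16 organoid lines was measured by sequencing of stranded libraries depleted of ribosomal RNA, per the labels' protocols. Per the submitters' processing notes, the tools were FastQC 0.11.8, STAR 2.6.0c and RSEM 1.3.1, and the build was GRCm38.p6. The authors deposited expected counts and TPM per gene. RSEM splits reads among similar genes, so near-identical copies are uncertain. The strand setting of the counting was not given in the sources used here. Isoform tables were not used here.

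Expected counts were rounded to whole numbers. Names came from GENCODE M21, which held 55394 of 55487 identifiers. In R 4.3.3, edgeR 4.0.16 fitted mouse and stage terms (TMM factors, filterByExpr by stage) to 15573 genes, with Benjamini-Hochberg adjustment over all of them and a threshold of 0.05. Mice pair the lines because the labels name the animal. CPM uses TMM-scaled library sizes, and class means use log2 CPM with a prior count of 2. Sites were compared in a second model that gave each site its own term. Animals were compared by testing all mouse terms at once. Scripts were tested on simulated data. Alternatives used limma 3.58.1 and DESeq2 1.42.0, other filters and factors, and TPM with pseudocounts of 1 and 0.1. Others summed counts per mouse and stage or left out lines or mice.

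The 40 genes, their classes and the wider lists were chosen with earlier results of these data known. Values are given for every gene past the stage threshold, the 5 with the lowest p between mice, the 3 with the lowest p between sites, fixed examples and, of wider lists, up to 4 called genes with the lowest p. Genes just outside the threshold or at an extreme were named after their values were seen.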

Additional observations from a re-analysis of the deposited data

Results flagged for a closer look

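Of 90 groups of line values checked for a line far from the others, 1 was marked by a test for single outlying values, and chance marks about 1 in 20. It was E2f1 in the metastasis lines, where the liver line of mouse 1 had 19.9 CPM and the next line 12.6 CPM, a gap of 0.652 of the range of the group. The tumor line of that mouse had 11.7 CPM, the highest of the tumor lines.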

How the results depend on the processing

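The count of genes higher in metastasis lines was 6, and it was 11 with DESeq2 and 4 without the replicate block for mouse. It was 3 with the log2 of the ribosomal RNA share as a covariate (chosen after seeing the data). Without the 2 libraries richest in ribosomal RNA it was 2, and with limma on TPM (pseudocount 1 or 0.1) it was 0. Of all genes, 6.59% were higher in the reported fit and 12% with DESeq2. The share was 1.62% with the log2 covariate, 1.5% without those 2 libraries and 2.11% with limma at pseudocount 1. Without the block, 2219 of all genes were called in either direction, against 2571 in the reported fit. With counts summed per mouse and stage, 4 of the 40 were called: Ccna2, Cenpa, Cenpe and Mybl2. That fit called 2402 of all genes in either direction, and 3 of its 4 were among the 6. On TPM the median log2 fold change of all genes was -0.10 and -0.16, against -0.02 on counts. Leaving out lines or mice gave 2 to 9 genes higher and 0 to 1 lower (Ccnd2, without the tumor line of mouse 5). Those fits called 766 to 3910 of all genes in either direction. The count that differed between mice was 1, 0 without the same 2 libraries, and 0 to 3 with a line or mouse left out. The count between sites was 0 in all settings run. The replication median turned to -0.00805 and -0.0126 on TPM, where the mitosis median was 0.0738 and 0.0736. With lines or mice left out they were 0.04 to 0.24 and 0.19 to 0.30. Replication minus mitosis ran from -0.15 to 0.01.

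Signs that reversed belonged to genes with no call in the reported test. Ccnd2 was 0.47 without the mouse block. On TPM (pseudocount 1, then 0.1) Ccne1 was -0.0783 and -0.0894, Pcna -0.0418 and -0.0427, and Ccne2 -0.0925 and -0.11. The medians of all genes in those fits were lower, at -0.10 and -0.16. Ccne2 was -0.0256 without the block and -0.00225 without the 2 libraries. With lines or mice left out Ccne2 ran from -0.074 to 0.11, Ccne1 from -0.0154 to 0.29, Mki67 from -0.19 to 0.0653 and Tyms from -0.13 to 0.00733. The causes were not tested. The diaphragm line of mouse 5 has the fewest counts, so values there are the least precise.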
